A study of Mus musculus with 12 samples.

Results

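Fbxo32, Trim63, Trim55, Trim54, Ube3a, Ubb, Sqstm1 and Cacybp were examined as genes of the muscle ubiquitin system and of autophagy, by every probe set that the platform annotation gives to a single one of them. Of these 8 genes, 6 had at least 1 such probe set, 14 probe sets in all among the 45037 on the array. Trim55 and Ubb had none in the annotation table used here and were not analysed here. Of the 14 probe sets, 12 passed the filter on low signals, and all 6 measured genes kept at least 1. Each gene was read from its brightest probe set, and the others are given beside it.

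Muscle removes worn or surplus proteins by tagging them with chains of ubiquitin. A ubiquitin ligase chooses the protein to be tagged, the proteasome degrades most tagged proteins, and adaptors such as Sqstm1 carry others to the autophagosome. Fbxo32 (also called MAFbx or atrogin-1) and Trim63 (MURF1) are the ligases best known from muscle wasting, in which FOXO transcription factors raise their transcription.

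The samples were heart RNA from C57BL/6 mice of 8 to 9 weeks, hybridised to an Affymetrix mouse expression array. Integrin-linked kinase (ILK) is an adaptor and kinase-like protein at the attachments of the heart muscle cell. The 3 ILKR211A Tg mice overexpressed, in the heart only, human ILK with a mutation in its pleckstrin homology region, and the 3 ILKS343D Tg mice overexpressed the form held to be constitutively active. The 6 WT mice were littermates without a transgene, in a first and a second set of 3. The labels do not say which set belongs to which line. The sources used here give neither the promoter behind the transgenes nor the number of founder lines. No surgery is named for any heart, although the methods of the study speak of infarcted groups. Hearts numbered 1 to 6 held the ILKS343D Tg mice and the first WT set, and hearts 7 to 12 the ILKR211A Tg mice and the second WT set. Each range thus holds 1 line and 1 WT set, and the range was also fitted as a block. Replicate 1 of the first WT set is labelled male and the others female, and its RNA is labelled as from the left ventricle.

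Precision is limited by the 12 arrays. The mouse Ilk probe set followed the labels, 14.6-fold above WT in ILKR211A Tg hearts (adjusted p = 3.8e-13 by limma) and 5.83-fold in ILKS343D Tg hearts (adjusted p = 1.6e-10). All 6 ventricular markers passed the filter, and their summed signal was 59705 to 65443 in ILKR211A Tg, 54475 to 60045 in ILKS343D Tg and 56873 to 67830 in WT hearts. The 4 atrial markers summed to 2608 to 20084, 1835 to 20843 and 2541 to 15898 in the same order, a wide range within each genotype. Their part in the results was not tested. None of 6 skeletal muscle markers passed the filter, with sums of 98.9 to 162.1 over all hearts. Fibroblast, endothelial and macrophage markers passed in full, and the fibroblast and endothelial sums overlapped between the genotypes. Macrophage sums were 1908 to 2026 in ILKR211A Tg, 2035 to 2438 in ILKS343D Tg and 1732 to 2289 in WT hearts. Each line overlapped WT in these sums, but the lines did not overlap each other. The part of this difference in the results was not tested. Of the 3 adipocyte and 4 neuronal markers with a probe set, Fabp4 and Syt1 were the ones above the filter. The ratio of 3′ to 5′ Gapdh probe sets was 0.742 to 0.783 in ILKR211A Tg, 0.776 to 0.799 in ILKS343D Tg and 0.771 to 0.799 in WT hearts.

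None of the 6 genes passed the test (adjusted p under 0.05 over 22519 probe sets) in ILKR211A Tg against WT hearts, where 0.206% of all 11189 tested genes did. By probe sets the counts were 0 of 12 against 0.204% of all. In ILKS343D Tg against WT hearts 0 of 6 genes and 0 of 12 probe sets passed, against 0.00894% of genes and 0.00444% of probe sets. In ILKR211A Tg against ILKS343D Tg hearts 0 of 6 and 0 of 12 passed, against 0.152% and 0.16%. At an unadjusted p under 0.05 the counts were 2 of 6 genes in the first comparison (Fbxo32 and Cacybp; 7.52% of all genes), 0 of 6 in the second (3.79%) and 2 of 6 in the third (Sqstm1 and Cacybp; 7.85%). The 3 comparisons share hearts and are not independent.

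**Figure D1:**
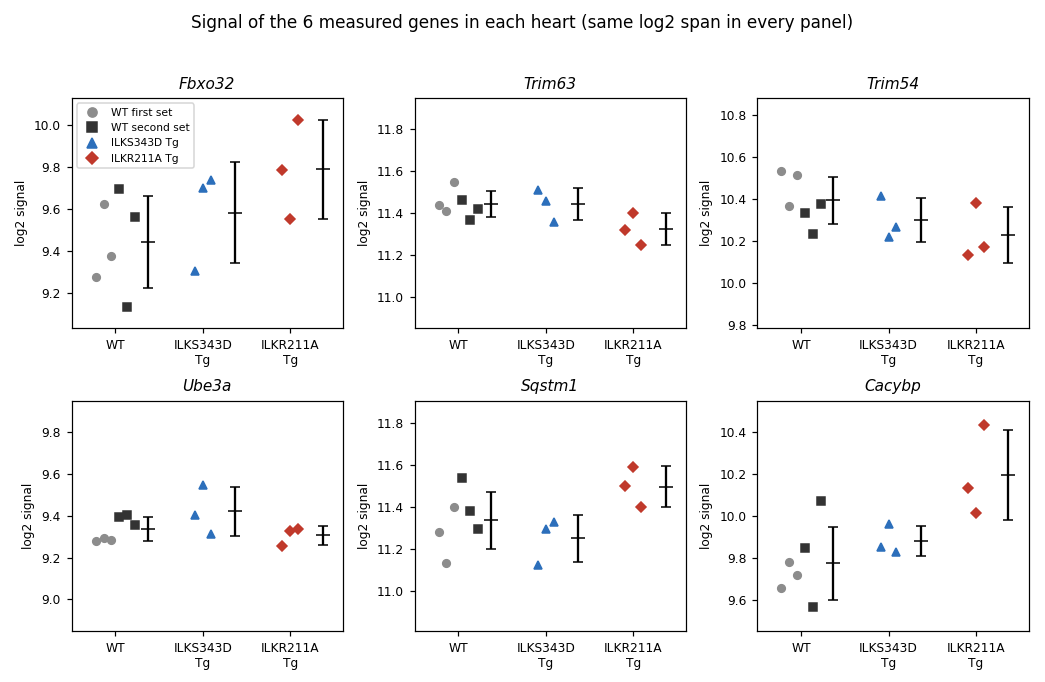
Log2 signal of the brightest probe set of each measured gene (vertical axes, the same span in every panel) in the 6 WT, 3 ILKS343D Tg and 3 ILKR211A Tg hearts, with each heart as a point and the mean ± SD beside it. The ILKR211A Tg hearts lie above all ILKS343D Tg hearts for Sqstm1 and Cacybp, and no gene separates either line from all WT hearts.

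The ligases that act in atrophy came first. Fbxo32 supplies the substrate-binding subunit of an SCF ligase and targets, among others, calcineurin. Its signal was 884, 751 and 1042 in the ILKR211A Tg hearts and 632, 833 and 853 in the ILKS343D Tg hearts. In WT hearts it ran from 561 to 830 around a median of 709. The higher ILKR211A Tg hearts, 2 of 3, stood above every WT heart, and the other lay inside the WT range. The mean was 892 ± 145 (SD, n = 3) against 703 ± 105 (SD, n = 6), a ratio of 1.27 (95% interval 1.04 to 1.55, limma), with an adjusted p of 0.566 and an exact permutation p of 0.0952. Against WT the ILKS343D Tg hearts gave a ratio of 1.1 (0.899 to 1.35, adjusted p = 0.995 by limma).

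Of its other probe sets, 1417522_at was above WT in the mean of both lines and 1448747_at was below WT in the mean of the ILKR211A Tg hearts. Probe set 1417522_at was at 0.11 on the log2 scale in ILKR211A Tg (adjusted p = 0.894 by limma) and 0.12 in ILKS343D Tg against WT hearts (adjusted p = 0.995). For 1448747_at the ILKR211A Tg hearts read 413, 357 and 356, the ILKS343D Tg hearts 457, 490 and 444, and the WT hearts 370 to 473 with a median of 423. On this probe set the ILKR211A Tg hearts were low, with 2 of 3 below every WT heart and all 3 below every ILKS343D Tg heart. The log2 fold change was −0.16 against WT (adjusted p = 0.693) and −0.31 against ILKS343D Tg hearts (adjusted p = 0.377), both by limma.

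The gap between these Fbxo32 probe sets is given as a description only, without a test, since it was chosen after the values were seen. The log2 signal of 1435265_at minus that of 1448747_at was 1.10, 1.07 and 1.55 in ILKR211A Tg hearts and 0.47, 0.77 and 0.94 in ILKS343D Tg hearts. It lay between 0.53 and 0.87 in the WT hearts. The mean difference from WT was 0.51 for ILKR211A Tg and −0.006 for ILKS343D Tg. Which transcripts of Fbxo32 each probe set reads is not given in the sources used here, and with the mean of all 3 probe sets the log2 fold change in ILKR211A Tg against WT hearts was 0.10 in place of 0.35.

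**Figure D2:**
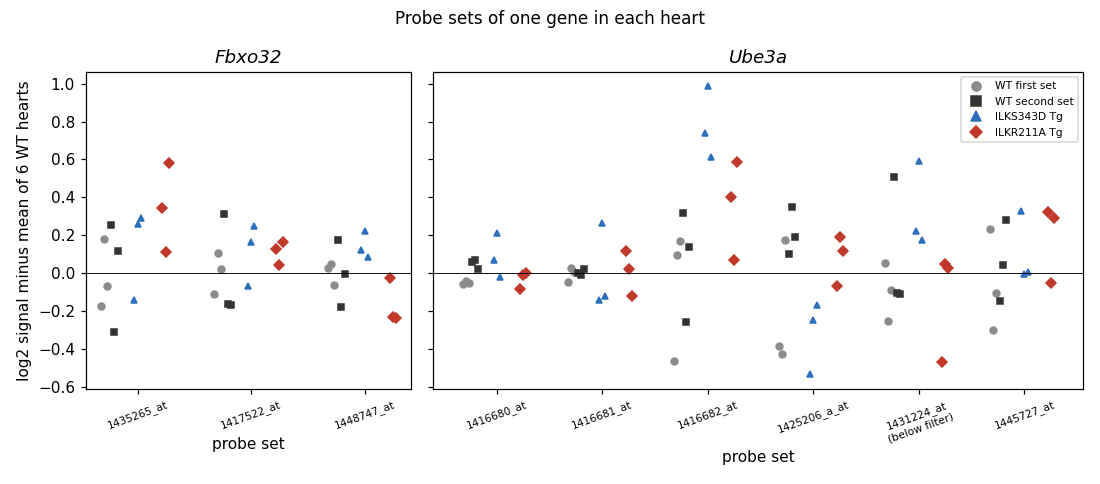
Log2 signal of every Fbxo32 and Ube3a probe set in each heart, minus the mean of the 6 WT hearts for that probe set (vertical axis). The ILKR211A Tg points lie above 0 for Fbxo32 1435265_at and below 0 for 1448747_at, and the ILKS343D Tg points lie above all WT points for Ube3a 1416682_at.

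Trim63 encodes MURF1, a RING ligase of the sarcomere M-band that tags thick filament proteins and troponin I. Its single probe set, 1438704_at, read 2557, 2701 and 2431 in ILKR211A Tg hearts and 2910, 2813 and 2622 in ILKS343D Tg hearts. The WT hearts held 2642 to 2995, with a median of 2754. In the ILKR211A Tg line 2 of 3 hearts lay below every WT heart and the other inside their range. The ratio to WT was 0.921 (95% interval 0.847 to 1.0; adjusted p = 0.678 by limma; exact permutation p = 0.0476). For ILKS343D Tg it was 1.0 (0.919 to 1.09), the smallest difference among the 6 genes.

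Trim54 encodes MURF3, a MURF1 relative that binds microtubules and the Z-disc. Signals of 1419440_at were 1122, 1334 and 1152 in ILKR211A Tg hearts and 1367, 1191 and 1232 in ILKS343D Tg hearts. The WT hearts lay between 1206 and 1483 around a median of 1325. Both lines had hearts below the WT range and hearts inside it, 2 of 3 outside for ILKR211A Tg and 1 of 3 for ILKS343D Tg. The ratio to WT was 0.891 (0.792 to 1.0; adjusted p = 0.673 by limma) in ILKR211A Tg and 0.937 (0.833 to 1.05; adjusted p = 0.995) in ILKS343D Tg hearts. Against the second WT set alone, the one in the same heart number range, the log2 fold change in ILKR211A Tg hearts was −0.09 in place of −0.17.

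RefSeq promoter windows (GRCm38.p6, 250 bases before to 50 after an annotated start) were found for 6 of the 8 genes, 7 windows in all, and for neither Fbxo32 nor Trim55. Both MURF windows are shown because they differ in the letters searched for. These were GTAAACA (a FOXO site), GAANNTTC and TTCNNGAA (heat shock elements), TGACNNNGC (an antioxidant response element), TATAAA and CCAAT, each on both strands. In capitals are matches to the FOXO, heat shock and TATA letters.
Trim63 (chr4:134314870-134315169, + strand): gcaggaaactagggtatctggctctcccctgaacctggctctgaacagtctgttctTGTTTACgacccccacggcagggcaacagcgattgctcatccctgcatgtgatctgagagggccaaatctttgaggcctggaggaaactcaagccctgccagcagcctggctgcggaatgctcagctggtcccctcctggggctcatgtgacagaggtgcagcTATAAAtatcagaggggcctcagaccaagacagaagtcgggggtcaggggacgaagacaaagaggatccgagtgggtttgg
Trim54 (chr5:31116362-31116661, + strand): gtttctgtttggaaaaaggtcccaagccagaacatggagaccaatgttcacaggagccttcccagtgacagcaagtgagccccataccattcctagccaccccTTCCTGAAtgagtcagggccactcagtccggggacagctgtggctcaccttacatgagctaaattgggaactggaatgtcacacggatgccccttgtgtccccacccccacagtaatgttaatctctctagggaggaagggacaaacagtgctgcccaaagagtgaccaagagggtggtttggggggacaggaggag
The Trim63 window holds the FOXO letters on the minus strand at −194 from the start and TATAAA at −31. GTAAACA occurs in 3.65% and TATAAA in 13.6% of all 32851 windows. The Trim54 window has TTCNNGAA at −147, found in 8.52% of windows, and CCAAT in 2 places, found in 37.4%. A match is a stretch of letters only, and neither gene passed the test in either line.

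Ube3a encodes E6-AP, the founding HECT ligase, which in neurons is read mainly from the maternal copy. Its brightest probe set, 1416680_at, read 610, 643 and 646 in ILKR211A Tg hearts and 677, 747 and 637 in ILKS343D Tg hearts. In WT hearts it ran from 621 to 677, with a median of 641. Ratios to WT were 0.980 (0.891 to 1.08) for ILKR211A Tg and 1.06 (0.964 to 1.17) for ILKS343D Tg, with adjusted p of 0.963 and 0.995 by limma. The WT sets themselves did not overlap, at 624 ± 2.98 and 669 ± 11.5 (SD, n = 3 each). That gap, 0.10 on the log2 scale (adjusted p = 0.760 by limma), is larger in size than the difference of either line from WT. Among all genes 12.2% had WT sets that did not overlap, and 0.0179% passed the test between them. Ube3a was the 1 of the 6 genes whose WT sets did not overlap, and none of the 6 passed.

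A dim Ube3a probe set, 1416682_at, differed most from WT in ILKS343D Tg hearts. It read 120, 143 and 110 there, 95.3, 75.7 and 108 in ILKR211A Tg hearts and 52.3 to 89.9 in WT hearts, with a median of 78.2. Every ILKS343D Tg heart stood above every WT and every ILKR211A Tg heart. The ratio to WT was 1.72 (95% interval 1.32 to 2.23), with an unadjusted limma p of 0.000556, within the lowest 0.0311% of all tested probe sets. It did not pass (adjusted p = 0.995 by limma), and the exact permutation p of 0.0238 is the smallest that the design allows. It was the 1 of 12 probe sets with groups that did not overlap in this comparison, against 2.03% of all probe sets and 0 of 6 genes against 1.99% of genes read from their brightest probe set. The other tested Ube3a probe sets differed less and not all in this direction: 1425206_a_at was at −0.32 on the log2 scale in ILKS343D Tg against WT hearts (adjusted p = 0.995), and differed by 0.43 between the WT sets (adjusted p = 0.541). Probe sets 1416681_at and 1445727_at read 225 and 48.0 on average in ILKS343D Tg and 223 and 44.6 in WT hearts. Probe set 1431224_at was under the filter, with genotype means of 34.4 to 47.1.

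Sqstm1 encodes p62, which holds ubiquitin chains with one domain and the autophagosome protein LC3 with another, and which sits with MURF ligases at the titin kinase. Its probe set 1450957_a_at read 2902, 3088 and 2699 in ILKR211A Tg hearts and 2231, 2517 and 2576 in ILKS343D Tg hearts. The WT hearts spanned 2243 to 2974, with a median of 2587. All 3 ILKR211A Tg hearts were above all 3 ILKS343D Tg hearts, and each line overlapped WT. The ratio of ILKR211A Tg to ILKS343D Tg was 1.19 (1.03 to 1.36; adjusted p = 0.485 by limma; exact permutation p = 0.1, the smallest that 3 against 3 allow). Against WT the ratios were 1.12 (0.992 to 1.26; adjusted p = 0.693) and 0.942 (0.836 to 1.06; adjusted p = 0.995), on either side of 1. With the heart number range as a block, the log2 difference between the lines was 0.11 in place of 0.25, and against the second WT set alone that of ILKR211A Tg hearts was 0.09 in place of 0.16. The second Sqstm1 probe set, 1444021_at, was under the filter, at 42.4 to 42.5 in the means of the 3 genotypes.

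Cacybp encodes a calcyclin-binding protein that links SIAH ligases to SKP1 and has a domain shared with co-chaperones. Of the 6 genes it differed most from WT in ILKR211A Tg hearts. Its probe set 1452047_at read 1126, 1037 and 1384 there and 925, 999 and 910 in ILKS343D Tg hearts. In the WT hearts it ran from 759 to 1079, with a median of 862. In the ILKR211A Tg line 2 hearts stood above every WT heart and the third above 5 of 6, whereas all ILKS343D Tg hearts lay inside the WT range. The ratio to WT was 1.34 (95% interval 1.15 to 1.56) for ILKR211A Tg, with an unadjusted limma p of 0.00122, within the lowest 0.595% of tested probe sets, and an adjusted p of 0.206. The exact permutation p was 0.0476. With same-numbered hearts of a range as pairs, the log2 fold change was 0.37 in place of 0.42, with an adjusted p of 0.0532 by limma. That pairing was chosen after the data were seen. For ILKS343D Tg the ratio was 1.08 (0.922 to 1.26; adjusted p = 0.995 by limma). All ILKR211A Tg hearts exceeded all ILKS343D Tg hearts, by 1.24-fold (1.04 to 1.49; adjusted p = 0.501 by limma; exact permutation p = 0.1). With the heart number range as a block this log2 difference was 0.20 in place of 0.31.

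By mean level, Fbxo32 and Cacybp ranked from ILKR211A Tg over ILKS343D Tg to WT, and Trim54 ranked the other way. Between the lines the order of Fbxo32 turned with the mean of all its probe sets (−0.03 in place of 0.21) and that of Trim54 with the heart number range as a block (0.09 in place of −0.07). Sqstm1 was highest in ILKR211A Tg and lowest in ILKS343D Tg hearts, and Ube3a the reverse. Trim63 was lowest in ILKR211A Tg hearts, at 2563 ± 135 (SD, n = 3), with ILKS343D Tg and WT level at 2782 ± 147 (n = 3) and 2781 ± 121 (n = 6). No neighbours in these orders differed by the test. With the heart number range as a block, Ube3a was at −0.21 in place of −0.11 on the log2 scale between the lines, and in ILKS343D Tg against WT hearts Trim54 was at −0.17 in place of −0.09, Ube3a at 0.14 in place of 0.09 and Cacybp at 0.16 in place of 0.11, none of them past the test. Over the 6 genes, 0 had groups that did not overlap in ILKR211A Tg against WT hearts, where 4.18% of all genes did. Between the lines the count was 2 of 6 genes (Sqstm1 and Cacybp) against 14.5% of all genes, and 5 of 12 probe sets against 15% of all probe sets. Where a probe set missed the threshold, the intervals above give the sizes of difference that these hearts still allow. A lower or higher signal in heart RNA could come from fewer or more cells of a type or from less or more RNA in each cell, which cannot be told apart here.

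**Figure D3:**
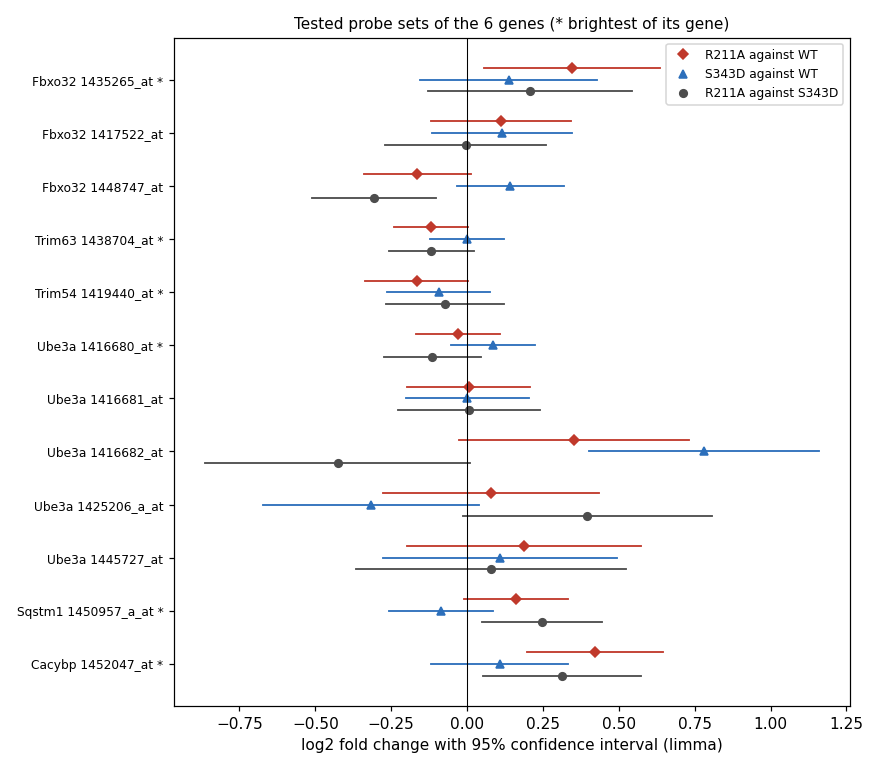
Log2 fold change with its 95% confidence interval (horizontal axis, limma) of the 12 tested probe sets of the 6 genes in the 3 comparisons, with the brightest probe set of each gene marked by an asterisk. Cacybp in ILKR211A Tg against WT hearts, at 0.42, and Ube3a 1416682_at in ILKS343D Tg against WT hearts, at 0.78, lie farthest from 0 relative to their intervals.

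Cacybp was set beside the heat shock genes of the same hearts. Of 15 targets of the heat shock factor HSF1, read from the same hearts, 6 rose in ILKR211A Tg against WT hearts, against 0.125% of all genes. An unadjusted p under 0.05 was reached by 14 of the 15, against 7.52% of all genes. The list had a median log2 fold change of 0.489, against −0.001 over all tested genes. Those that rose were Hspa1a and Hspa1b, the inducible HSP70 genes, at 1.73 and 1.48, Hsph1, their exchange factor, at 1.28, Hsp90aa1 at 0.85, Stip1, which joins HSP70 to HSP90, at 0.56, and Hspa8 at 0.49, with adjusted p between 0.00315 and 0.0251 by limma. Hspa1a and Hspa1b are near-identical, so their probe sets may share signal. In ILKS343D Tg against WT hearts 0 of 15 passed, 0 had an unadjusted p under 0.05, and the median was −0.051. In ILKR211A Tg against ILKS343D Tg hearts 6 of 15 were higher by the test, against 0.0983% of all genes. The 6 were Hsph1, Hspa1a, Hspa1b, Hsp90aa1, Stip1 and Hspa8, and the median over the list was 0.567. Without the filter on low signals, 2 in place of 6 passed there. Heat shock genes are among those that the study picked from these hearts, so these counts are not independent evidence.

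The Cacybp window is shown because Cacybp differed most from WT of the 6 genes in ILKR211A Tg hearts.
Cacybp (chr1:160212843-160213142, - strand): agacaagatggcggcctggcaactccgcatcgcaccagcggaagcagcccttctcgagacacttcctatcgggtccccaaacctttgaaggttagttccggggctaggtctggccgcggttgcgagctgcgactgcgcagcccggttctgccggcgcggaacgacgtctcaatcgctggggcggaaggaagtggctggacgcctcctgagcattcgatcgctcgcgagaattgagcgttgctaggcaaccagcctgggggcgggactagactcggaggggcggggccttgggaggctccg
None of the motifs spelled out above occurs in these 300 bases, so no letters are in capitals. The heat shock letters GAANNTTC and TTCNNGAA occur in 7.86% and 8.52% of all windows. No match says only that these letters are not in this window.

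Cacybp lies on chromosome 1, on which 7 genes passed the test in ILKR211A Tg against WT hearts. In the RefSeq gene order these lay 41 to 106 tested genes after Cacybp, among 641 tested on the chromosome. Of the 10 tested genes on each side of Cacybp, 0 of 20 passed, 0 had an unadjusted p under 0.05 in ILKR211A Tg against WT hearts, and their log2 fold changes ran from −0.17 to 0.225 with a median of 0.033. The nearest were Mrps14 at −0.09, 4930523C07Rik at 0.09 and Cop1, itself a ubiquitin ligase, at −0.02 on one side, and Rabgap1l at 0.11, Rc3h1 at 0.09 and Gas5 at 0.23 on the other. All are below the 0.42 of Cacybp. In ILKS343D Tg against WT hearts the 20 neighbours had a median of 0.049, 2 with an unadjusted p under 0.05 and 0 past the test. Over all genes 7.52% had an unadjusted p under 0.05 in ILKR211A Tg and 3.79% in ILKS343D Tg against WT hearts. The promoter windows carry the coordinates of GRCm38.p6, and the deposited table names no build.

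**Figure D4:**
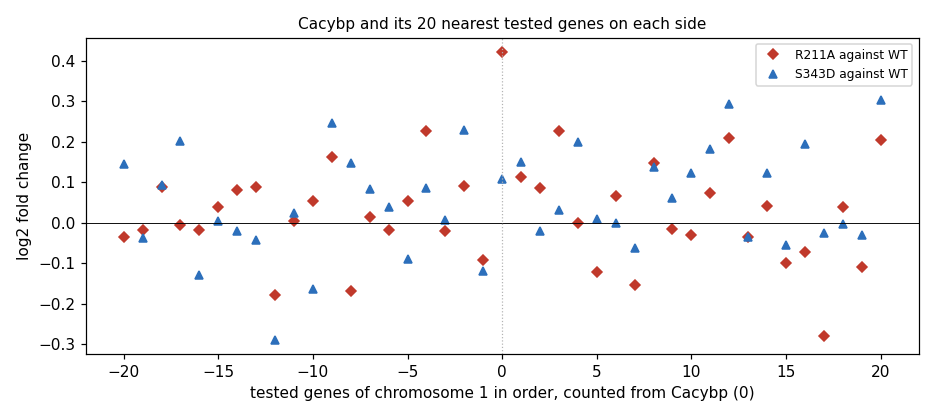
Log2 fold change (vertical axis) of Cacybp and the 20 tested genes on each side of it in the order along chromosome 1 (horizontal axis, gene count from Cacybp), for both lines against WT. Cacybp, at 0 on the horizontal axis, is the highest ILKR211A Tg point at 0.42.

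The known partners of Cacybp were read as a list of SIAH ligases, SCF subunits, S100 ligands and β-catenin. Of 9 tested, 0 passed in any comparison. In ILKR211A Tg against WT hearts 3 of the 9 had an unadjusted p under 0.05, where 7.52% of all genes did. Skp1, the adaptor that holds F-box proteins such as Fbxo32, was at 0.18 on the log2 scale (adjusted p = 0.340 by limma), with groups that did not overlap. Cul1, the SCF scaffold, was at −0.21 (adjusted p = 0.577) and Tbl1x, which bridges SIAH1 to β-catenin, at 0.14 (adjusted p = 0.639). The Tbl1x groups did not overlap either, and 4.18% of all genes had such groups. These partners had a median of −0.048 in ILKR211A Tg and 0.003 in ILKS343D Tg against WT hearts.

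Other ubiquitin ligases of striated muscle numbered 20 tested of 25, with 0 passing in either line. Against WT, 0 of the 20 had an unadjusted p under 0.05 in either line, where 7.52% and 3.79% of all genes did. The medians of the 20 were 0.022 in ILKR211A Tg and −0.029 in ILKS343D Tg hearts. Asb8 at 0.16, Cblb at 0.18 and Mdm2 at −0.15 had the smallest p in ILKR211A Tg against WT hearts (adjusted p of 0.667, 0.730 and 0.747 by limma). The Cblb groups did not overlap there, as for 4.18% of all genes. Of the other HECT ligases, the family of Ube3a, 17 of 22 were tested and 0 passed, with medians of 0.019 and 0.013. Herc3 was at −0.22, Wwp2 at −0.33 and Wwp1 at −0.27 in ILKR211A Tg against WT hearts, with adjusted p of 0.714, 0.730 and 0.813. In ILKS343D Tg against WT hearts they were at 0.04, −0.39 and −0.21 (adjusted p = 0.995 for each). The Wwp2 groups did not overlap there, as for 1.99% of all genes.

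Ubiquitin genes and their activating, conjugating and deubiquitinating enzymes gave 24 tested genes of 30, with 0 passing and medians of −0.019 and −0.043. Ube2v2, a partner of UBE2N in building K63-linked chains, was at −0.27 (adjusted p = 0.563 by limma) in ILKR211A Tg against WT hearts. Usp19, a deubiquitinating enzyme known from muscle atrophy, was at −0.22 and Ube2j1, which acts at the endoplasmic reticulum, at −0.24 (adjusted p of 0.647 and 0.649). The groups of Ube2j1 did not overlap there, nor did those of Ube2b, Ube2r2 and Uchl5, where 4.18% of all genes had such groups. Of these genes Ube2b was higher and the others lower in ILKR211A Tg hearts. In ILKS343D Tg against WT hearts Ube2v2 was at 0.06, Usp19 at −0.26 and Ube2j1 at −0.19 (adjusted p = 0.995 for each). In this list 3 of 24 genes had an unadjusted p under 0.05 in ILKR211A Tg and 2 of 24 in ILKS343D Tg against WT hearts. Over all genes the shares were 7.52% and 3.79%.

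Autophagy adaptors, autophagosome and lysosome genes, the company of Sqstm1, were tested for 36 of 38. None passed in any comparison, and medians were 0.013 in ILKR211A Tg and −0.031 in ILKS343D Tg against WT hearts. Gabarapl1, an LC3 relative that Sqstm1 binds, was the highest, at 0.34 in ILKR211A Tg against WT hearts (95% interval 0.12 to 0.55; adjusted p = 0.331 by limma) and −0.01 in ILKS343D Tg (adjusted p = 0.999). Its ILKR211A Tg hearts did not overlap either other genotype. Over all genes 4.18% had groups that did not overlap in ILKR211A Tg against WT hearts and 14.5% between the lines. Atg16l1, which places LC3 on membranes, was at −0.15 (adjusted p = 0.639), and Ctsd, a lysosomal protease, at 0.14 (adjusted p = 0.671). The groups of Atg16l1, and those of Wipi1 at 0.12, did not overlap in ILKR211A Tg against WT hearts either. At an unadjusted p under 0.05 the list had 2 of 36 genes in ILKR211A Tg against WT hearts and 4 of 36 between the lines. Over all genes the shares were 7.52% and 7.85%.

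A list drawn up around the titin kinase, where MURF ligases and Sqstm1 sit, had 11 of 12 tested and 0 passing. It held M-band genes and also Srf, Fhl2, Mybpc3 and Tnni3, and is not a list of a single complex. Srf, a transcription factor whose nuclear level MURF2 lowers, was at 0.28 (adjusted p = 0.438 by limma) in ILKR211A Tg against WT hearts, and at 0.46 (adjusted p = 0.155) against ILKS343D Tg hearts. Cmya5 was at −0.11 and Fhl2 at −0.04 in ILKR211A Tg against WT hearts (adjusted p of 0.763 and 0.934). In ILKS343D Tg against WT hearts 1 of 11 had a log2 fold change above 0, with a median of −0.121 and 1 of 11 at an unadjusted p under 0.05. Over all 11189 genes 5569 were above 0 there, the median was −0.001, and 3.79% had an unadjusted p under 0.05. In ILKR211A Tg against WT hearts 6 of 11 were above 0, where 5542 of all 11189 genes were.

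The remaining genes of the FOXO atrophy programme and its regulators were tested for 19 of 22, and 0 passed. Medians were 0.005 in ILKR211A Tg and 0.016 in ILKS343D Tg against WT hearts. Pdk4, the kinase that shuts pyruvate dehydrogenase in fasting, was at −0.71 (adjusted p = 0.641 by limma) in ILKR211A Tg against WT hearts. Ppargc1a, a coactivator that restrains atrophy, was at −0.21 (adjusted p = 0.511) and Fkbp5, a glucocorticoid target, at −0.30 (adjusted p = 0.670). The Ppargc1a groups did not overlap there, as for 4.18% of all genes. Txnip, an inhibitor of thioredoxin named here after its values were seen, was at 0.93 in ILKS343D Tg (unadjusted p = 0.00789, adjusted p = 0.995) and 0.21 in ILKR211A Tg against WT hearts, and differed by −0.73 between the WT sets (adjusted p = 0.585). For Pdk4 the difference between the WT sets, −0.83 from first to second set (adjusted p = 0.529), was larger in size than its −0.71. Between the WT sets 7 of 19 genes of this list had an unadjusted p under 0.05, where 7.25% of all genes did, and 0 of 19 passed. Fbxo32 and Trim63 differed between the WT sets by 0.04 and −0.05.

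**Figure D5:**
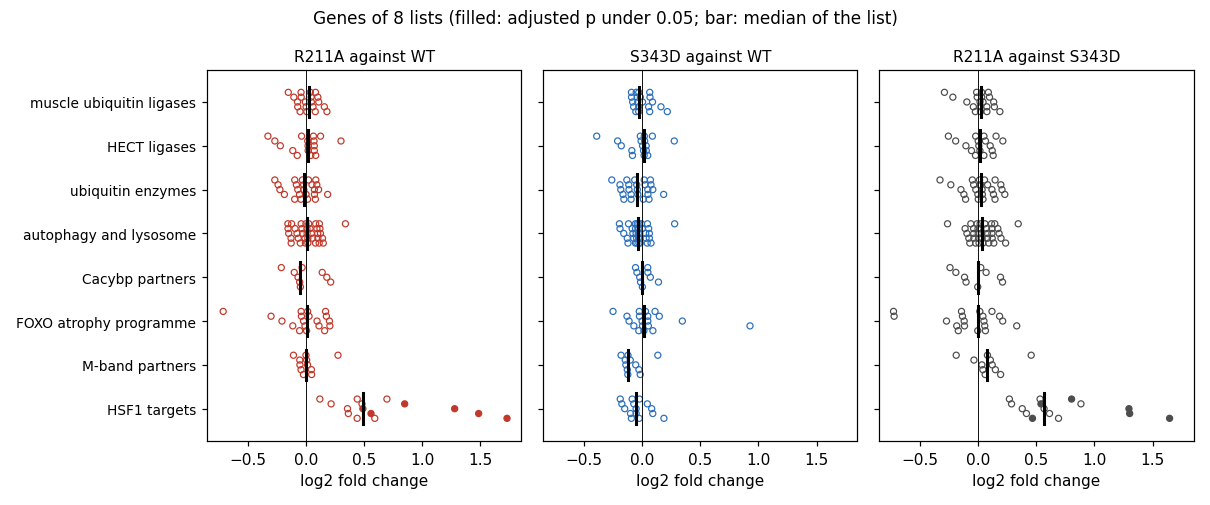
Log2 fold change (horizontal axes) of every tested gene of 8 lists in the 3 comparisons, filled where the adjusted p was under 0.05, with a bar at the median of each list. Filled points occur only among the HSF1 targets of ILKR211A Tg hearts, 6 against WT and 6 against ILKS343D Tg.

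The genes most like each member were found by Pearson's r of log2 signal over the 12 hearts, among 11188 tested genes. These are descriptions, since hearts of a genotype are not independent points and the highest of so many values is always high. Fbxo32 was nearest to Rgl1 (r = 0.886, Spearman's rho = 0.839) and Arhgef11 (r = 0.874, rho = 0.909). Trim63 was nearest to Irak1bp1 (0.904 and 0.832) and Slc7a4 (0.884 and 0.839), and Trim54 to Smcr8 (0.887 and 0.937) and Atg16l1 (0.884 and 0.874). For Ube3a these were Tapbp (0.910 and 0.874) and Stag2 (0.886 and 0.713), and for Sqstm1 they were Cerk (0.908 and 0.811) and Echs1 (0.906 and 0.881). Cacybp was nearest to Abhd3 (0.887 and 0.790) and to Stip1 (0.854 and 0.867), which is among the HSF1 targets that rose in ILKR211A Tg hearts. No 2 members shared a nearest gene.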

How the data were processed

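RNA from 12 mouse hearts was measured on Affymetrix arrays. Per the labels, the deposited values are linear signal intensities that the authors computed with MAS5. The study names GCOS for this step; its version is not given in the sources used here. On each array the mean without the lowest and highest 2% was 150.001, and the median signal 41.5 to 49.1. Here 64 array controls were left out, signals were taken to log2 with nothing added, and the 22519 of 45037 probe sets with a mean log2 signal of at least 5.44 (43.5) were tested. The platform table gives 34945 probe sets 1 gene, 932 several and 9160 none, with symbols updated to RefSeq through Entrez IDs. A gene was read from its brightest probe set. No level was ranked between probe sets of different genes, and the gap between 2 Fbxo32 probe sets is a description.

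limma 3.58.1 (R 4.3.3) was fitted with 3 genotype groups on all hearts, or 4 groups for the WT sets, with a trended prior, two-sided tests and Benjamini-Hochberg adjustment over all tested probe sets. A call is an adjusted p under 0.05. Two-sided exact permutation tests over hearts used SciPy 1.17.1, for 12 probe sets in each of 4 comparisons, unadjusted, with 84 splits for 3 against 6. Plots came from Python 3.11.15 with matplotlib 3.10.9. The scripts were tested on simulated data. The labels name separate mice, with no further detail on them. Deviations of same-numbered hearts from their group means correlated at 0.119 to 0.179 between ILKR211A Tg and the second WT set (3 of 3 over 0.1). The values were 0.071 to 0.209 between ILKS343D Tg and the first set (2 of 3 over 0.1), and -0.205 to -0.008 between both lines. The replicate numbers entered only the blocks among the alternatives, not the main fit or the permutation tests. Hearts with unlike numbers reached similar values, such as 0.133 between ILKR211A Tg replicate 1 and ILKS343D Tg replicate 2. Whether the numbers mark true pairs was not tested. A block of 6 same-numbered pairs within the heart number ranges was added after the data were seen.

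Named were all members, from each list the genes called and otherwise up to 3 with the smallest p in ILKR211A Tg against WT hearts, the 2 genes most like each member, Ilk, the outer genes of marker lists and 3 neighbours of Cacybp on each side. Txnip, Ube2b, Ube2r2, Uchl5 and Wipi1 were named after their values were seen. The members and lists were chosen with earlier results of these data known. The alternatives were centring, quantile normalization, an offset of 16, no filter or one at a signal of 100, no trend, array weights, 2 genotypes only, each WT set alone, a replicate or heart number block, gene means and each heart left out.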

Additional observations from a re-analysis of the deposited data

How the results depend on the processing

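None of the 6 genes passed limma's test under any alternative in any of the 3 genotype comparisons (0 of 6 throughout, also with each heart left out, lowest to highest 0 to 0). The lowest adjusted p was that of Cacybp in ILKR211A Tg against WT hearts, 0.0532 with a replicate block within each heart number range, 0.0658 without replicate 3 of the second WT set and 0.108 with arrays centred on their medians. Its log2 fold change ran from 0.37 to 0.48 under the alternatives and from 0.30 to 0.51 with hearts left out, the lowest without ILKR211A Tg replicate 3. With replicate number as a block the member counts were again 0, and Cacybp kept 0.42 (adjusted p = 0.205), while all probe sets passing went from 46 to 52, 1 to 1 and 36 to 38. The block within each heart number range, chosen after seeing the data, gave 0 members and 47, 1 and 1 probe sets. Neither block changed a call of a member.

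Directions turned in these cases. Ube3a in ILKR211A Tg against WT hearts (main value -0.03) was 0.00585 with centred arrays, 0.0206 against the first WT set and 0.0779 with gene means. Trim63 in ILKS343D Tg against WT hearts (main ratio 1.0) was -0.0337 with centred arrays, -0.000917 with array weights, -0.0241 against the first WT set or with either block by heart number range, and -0.0332 to 0.0421 with hearts left out. Between the lines, Fbxo32 (0.21) was -0.0344 with gene means and Trim54 (-0.07) 0.0852 with either block by heart number range. Between the WT sets, an alternative chosen after seeing the data, Fbxo32 (0.04) was -0.0296 with centred arrays and -0.0782 to 0.204 with hearts left out, and Cacybp (0.11) -0.0132 to 0.240. With no filter, 2 HSF1 targets in place of 6 passed between the lines. The 20 genes on each side of Cacybp had medians of 0.009 in ILKR211A Tg and 0.027 in ILKS343D Tg against WT hearts.

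All probe sets passing in ILKR211A Tg against WT hearts went from 46 to 19 against the second WT set. With gene means the unit was the gene, and 14 genes passed where 23 did in the main fit. In ILKS343D Tg against WT hearts the count went from 1 to 2 under the same settings. Between the lines 36 probe sets became 5 without the trend, 55 with array weights and 16 with 2 genotypes only. They became 3 with the heart number range as a block and 10 to 49 with hearts left out. With gene means 10 genes passed between the lines, where 17 did in the main fit. The cause was not tested. With 3 hearts a line, the printed intervals give the precision.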
